A study of Mus musculus with 24 samples.

Results

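The CCT complex, also called TRiC, is the chaperonin of the eukaryotic cytosol, and its 8 subunit genes are described here in mouse fibroblasts that carried forms of the transcription factor Myc. The members were taken by name, as Tcp1, Cct2, Cct3, Cct4, Cct5, Cct6a, Cct7 and Cct8. All 8 were among the 21671 genes of the expression table, and all 8 were among the 12268 genes tested. RNA sequencing of 24 libraries of 3T9 cells, an immortalised mouse fibroblast line, gave the values, with 3 libraries in each of 8 groups.

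The groups combined the vector with which cells were infected and the time in OHT. OHT is 4-hydroxytamoxifen, the ligand that activates proteins fused to the hormone-binding part of the oestrogen receptor (ER). The vectors were BP-MycER in the WT form, in the HEA form and in the RA form, and the empty vector (EV), each at 8 h and at 4 h. MycER is such a fusion of Myc, and HEA and RA are mutant forms, and no source used here gives the residues that were changed. All groups, EV included, received OHT, and no library without it was used here. The cells grew in DMEM with serum. Whether the 3 libraries of a group came from separate cultures is not stated in the labels. All p-values below therefore rest on a spread between samples that may be only technical.

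CCT consists of a pair of stacked rings, each built from the same set of different but related subunits, and it uses ATP to close around a protein chain while the chain folds. Actin and tubulin cannot reach their folded state without it, and many proteins with WD40 repeats also pass through it. Prefoldin hands it unfolded chains, and phosducin-like proteins bind it as cofactors. The subunits are named by Greek letters as well: Tcp1 encodes alpha, Cct2 beta, Cct3 gamma, Cct4 delta, Cct5 epsilon, Cct6a zeta, Cct7 eta and Cct8 theta. Myc binds DNA with its partner Max at E-boxes, of which CACGTG is the best-known form and CANNTG the general one.

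Promoters of 4 subunits are shown as examples of genes on which the results below turn. Cct7 and Cct8 were the subunits called higher with MycER WT than with EV at both times, together with Cct4. Cct2 and Cct3 were called higher with MycER WT than with HEA at both times, together with Cct5. No promoter sequence was at hand for Cct4, and the windows of Cct5 are not shown. Each window runs from 250 bases before to 50 bases after an annotated start site, in RefSeq on build GRCm38.p6, which is not the build of the expression table. Capitals mark the matches to CANNTG.
Cct7 (chr6:85451255-85451554, plus strand): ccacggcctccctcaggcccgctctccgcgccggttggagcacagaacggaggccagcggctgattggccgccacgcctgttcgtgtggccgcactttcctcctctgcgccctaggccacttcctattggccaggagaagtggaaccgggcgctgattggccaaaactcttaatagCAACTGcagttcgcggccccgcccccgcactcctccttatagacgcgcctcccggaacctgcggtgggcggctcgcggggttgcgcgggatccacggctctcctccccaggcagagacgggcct
Cct8 (chr16:87495820-87496119, minus strand): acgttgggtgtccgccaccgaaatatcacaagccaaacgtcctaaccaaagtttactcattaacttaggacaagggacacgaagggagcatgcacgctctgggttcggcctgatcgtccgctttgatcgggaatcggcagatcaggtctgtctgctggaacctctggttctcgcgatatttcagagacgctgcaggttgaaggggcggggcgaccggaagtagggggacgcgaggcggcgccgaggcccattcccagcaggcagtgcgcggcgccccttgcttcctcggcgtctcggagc
Cct2, first window (chr10:117063803-117064102, minus strand): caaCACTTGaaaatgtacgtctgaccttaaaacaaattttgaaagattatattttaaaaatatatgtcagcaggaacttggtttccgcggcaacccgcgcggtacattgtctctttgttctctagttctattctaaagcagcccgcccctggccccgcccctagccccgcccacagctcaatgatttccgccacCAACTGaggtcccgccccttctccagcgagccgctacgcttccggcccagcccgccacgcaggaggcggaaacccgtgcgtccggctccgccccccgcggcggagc
Cct2, second window (chr10:117063326-117063625, minus strand): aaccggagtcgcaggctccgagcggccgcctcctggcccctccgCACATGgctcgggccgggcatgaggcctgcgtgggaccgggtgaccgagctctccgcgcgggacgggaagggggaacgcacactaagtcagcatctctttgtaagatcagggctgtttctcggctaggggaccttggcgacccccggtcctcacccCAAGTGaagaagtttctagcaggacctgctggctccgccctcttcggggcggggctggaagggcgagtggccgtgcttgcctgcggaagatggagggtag
Cct3 (chr3:88296885-88297184, plus strand): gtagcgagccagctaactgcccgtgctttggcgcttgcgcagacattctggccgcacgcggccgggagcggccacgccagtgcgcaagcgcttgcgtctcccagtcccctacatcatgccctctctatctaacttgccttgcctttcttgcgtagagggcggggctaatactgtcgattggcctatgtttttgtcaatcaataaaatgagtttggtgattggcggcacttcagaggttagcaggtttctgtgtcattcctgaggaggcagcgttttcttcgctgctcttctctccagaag

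Promoter sequences were at hand for 7 of the 8 genes, in 9 windows, since Cct2 and Cct5 have 2 annotated starts each. CACGTG was in 0 of the 9 windows, against 7.15% of the 32851 mouse windows of the same length. CANNTG, of which CACGTG is a special case, was in 6 of the 9 windows, those of Cct2, Cct5, Cct6a and Cct7, against 72.3% of all windows. Both motifs read the same on either strand. CCAAT, searched on both strands, was in 4 of the 9 windows, those of Cct3, Cct6a, Cct7 and Tcp1, against 37.4% of all windows. A match is a description of the letters and not of binding, and its absence says only that those letters are not in the window. No motif searched was in all 9 windows.

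The 24 libraries held 9.82 to 12.8 M reads in genes, recovered from the steps of the deposited RPKM values (reads scaled by gene length and by library total). ER reads marked the vectors: Esr1, which matches the ER part of the fusion, had 9.04 to 13.7 RPKM in the 18 MycER libraries and 0.0990 to 0.385 RPKM in the 6 EV libraries. Myc did not separate them, with 29.0 to 68.3 RPKM in MycER libraries and 53.2 to 62.4 RPKM in EV libraries. Of 8 fibroblast markers, 7 averaged at least 1 RPKM, and Thy1 did not. The fibroblast markers summed to between 570 and 735 RPKM. Epithelial markers summed to at most 1.36 RPKM with Epcam at 0, and endothelial markers to at most 0.639 RPKM. Of 5 macrophage markers 4 were in the table, and 3 averaged at least 1 RPKM while Ptprc did not. They summed to 16.3 to 26.5 RPKM. Of 5 muscle markers 1 averaged at least 1 RPKM, and they summed to 1.60 to 9.13 RPKM with Myod1 at 0. Relative to the other libraries of their group, replicate 3 of WT at 4 h, replicate 3 of WT at 8 h and replicate 2 of EV at 4 h lay farthest away.

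All 8 subunits were expressed at a high level in every group, and their levels kept nearly the same order throughout. Cct5, whose human counterpart is mutated in a hereditary sensory neuropathy, was the most abundant, with a mean of 123 RPKM over the 24 libraries and a range of 111 to 144 RPKM. Cct2 followed at 101 RPKM and Cct6a at 98.6 RPKM; Cct2 was above Cct6a in 19 of the 24 libraries, so these neighbours in the order were not separated beyond their spread. Cct4 averaged 83.5 RPKM, Cct8 76.2 RPKM, Cct3 59.6 RPKM, Tcp1 50.2 RPKM and Cct7 37.7 RPKM. For every other pair of neighbours the order held in 24 of 24 libraries. Within the table Cct5 ranked at place 58 by mean RPKM and Cct7 at place 2502.

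The span of these levels depended on the gene length behind each RPKM. The most abundant subunit had 3.26 times the RPKM of the least abundant, while the subunits' mean reads per library spanned only 1988 for Cct8 to 2633 for Tcp1, a ratio of 1.32. The counted length was 6227 bases for Cct7, 2.55 times its longest coding transcript in GENCODE M21, and 4799 bases for Tcp1, 1.96 times the transcript. For Cct3 the ratio was 1.57, and for Cct2, Cct4, Cct5 and Cct8 it lay between 0.955 and 1.07. Per base of that transcript the 7 subunits that have one there spanned 1.54-fold, with Cct5 highest at 117 and Cct8 lowest at 76.2 on the same scale as RPKM. The low RPKM of Cct7 and Tcp1 was therefore not matched by a low number of reads.

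With MycER WT, every subunit had a higher mean level than with EV at both times, by small amounts; with quantile normalization Cct6a at 8 h stood at -0.00104 on the log2 scale. The summed level of the 8 subunits was 659 ± 11.2 RPKM with MycER WT against 602 ± 4.57 RPKM with EV at 8 h, and 701 ± 28.9 RPKM with MycER WT against 628 ± 23.4 RPKM with EV at 4 h (SD, n = 3 each). In bulk RNA, more RNA of these genes per cell and more cells that express them cannot be told apart. RPKM is scaled to the library total, so the amount of RNA per cell was not measured. The test was limma's moderated test on log2(RPKM + 0.5), adjusted over all 12268 genes by Benjamini-Hochberg with 0.05 as the threshold, and fold changes are on that log2 scale. At 8 h it called 4 of 8 subunits higher and 0 lower, where 15.2% of all genes tested were called higher and 20.1% lower. After 4 h it called 5 of 8 higher and 0 lower, where 11.6% of all genes were called higher and 14.4% lower.

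**Figure D1:**
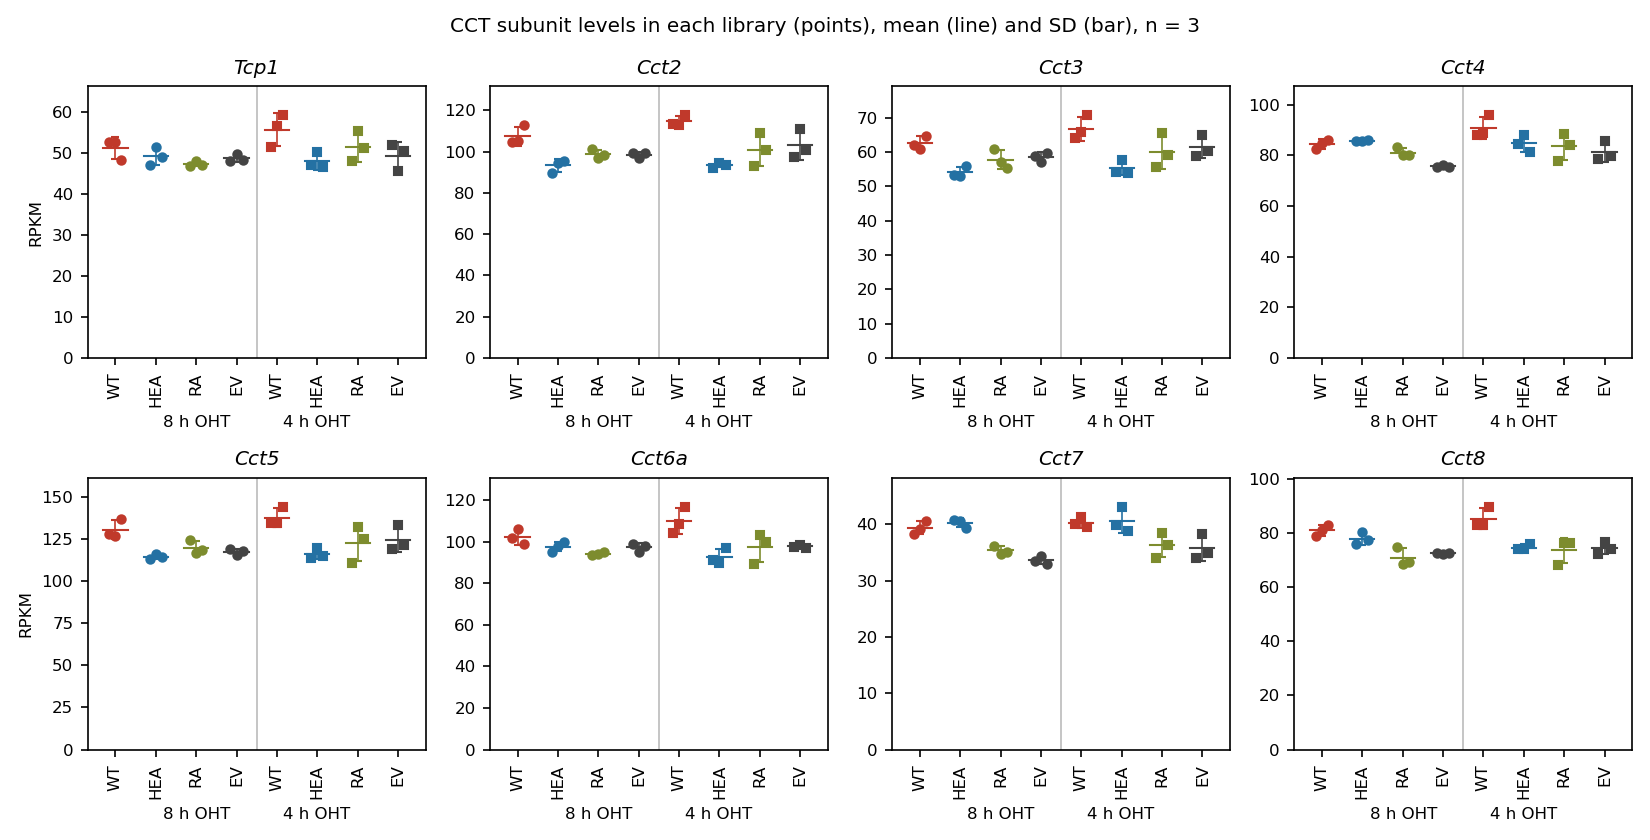
RPKM of each CCT subunit (vertical axes from 0) in every library, with 8 h of OHT left of the grey line and 4 h right of it; points are libraries, horizontal lines group means and bars the SD (n = 3). The WT points of Cct4, Cct7 and Cct8 lie above all EV points at both times, while HEA points of Cct2 and Cct3 lie below them.

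Cct7, the eta subunit, changed most with MycER WT at 8 h. It had 38.3, 39.2 and 40.6 RPKM in WT libraries, against 33.6, 34.4 and 33.0 RPKM in EV libraries, so the groups did not overlap. The log2 fold change was 0.22 ± 0.056 (SE; limma adjusted p = 0.00407), a ratio of 1.17. This call held under every alternative run and without each library in turn, with adjusted p between 0.0021 and 0.0209. At 4 h Cct7 had 40.0, 41.4 and 39.4 RPKM in WT libraries, against 34.1, 38.2 and 34.9 RPKM in EV libraries, again without overlap. That log2 fold change was 0.17 ± 0.056 (limma adjusted p = 0.0286), and it lost the threshold under cyclic loess (adjusted p = 0.106) and quantile normalization (0.151), and without replicate 1 of EV (0.118), replicate 3 of EV (0.0913) or replicate 2 of WT (0.0900).

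Cct8 encodes theta, which in human cells is known for its high level in pluripotent stem cells. At 4 h it had 83.1, 82.7 and 89.7 RPKM in WT libraries, against 72.2, 76.8 and 74.2 RPKM in EV libraries. WT was above EV without overlap, with a log2 fold change of 0.19 ± 0.049 (limma adjusted p = 0.00667). At 8 h it had 78.9, 81.2 and 82.9 RPKM in WT libraries, against 72.5, 72.4 and 72.4 RPKM in EV libraries. The EV values were nearly equal and the WT values lay above them, with a log2 fold change of 0.16 ± 0.049 (limma adjusted p = 0.0162). Without replicate 3 of WT the adjusted p at 8 h was 0.0603.

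Cct4 encodes delta, a subunit mutated in a rat strain with sensory neuropathy. It had 82.4, 85.1 and 86.0 RPKM in WT libraries, against 75.6, 76.1 and 75.5 RPKM in EV libraries at 8 h. The groups did not overlap, and the log2 fold change was 0.16 ± 0.049 (limma adjusted p = 0.0166; 0.0565 without replicate 3 of WT). After 4 h it had 88.1, 88.9 and 95.9 RPKM in WT libraries, against 78.5, 85.6 and 79.9 RPKM in EV libraries. The log2 fold change there was also 0.16 ± 0.049 (limma adjusted p = 0.0202), with replicate 3 highest in WT and replicate 2 highest in EV, both among the libraries far from their groups. The call of Cct4 at 4 h was lost without replicate 3 of WT (adjusted p = 0.12), replicate 1 of EV (0.0849) or replicate 3 of EV (0.067). It was also lost under cyclic loess (adjusted p = 0.0964) and quantile normalization (0.0703), where its log2 fold change was 0.09 and 0.08.

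The other calls were also lost under some alternatives. Cct5 rose at 8 h, with 128, 127 and 137 RPKM in WT libraries against 119, 115 and 118 RPKM in EV libraries (log2 fold change 0.15 ± 0.055, limma adjusted p = 0.0362). That call was lost without any of 5 of the 6 libraries, at adjusted p up to 0.155 without replicate 3 of WT. It was also lost with voom on recovered reads (adjusted p = 0.0531), no filter (0.0641) and no variance trend (0.0731), and without the 3 farthest libraries (0.102). Cct2 rose at 4 h, with 113, 113 and 118 RPKM in WT libraries against 97.6, 111 and 101 RPKM in EV libraries (log2 fold change 0.15 ± 0.053, limma adjusted p = 0.0375). Its call was lost without any of 5 of the 6 libraries, at adjusted p up to 0.164. The call of Cct2 was also lost with voom on recovered reads (adjusted p = 0.0524), no filter (0.0576) and no variance trend (0.0737). Cct6a, the widely expressed of a pair of zeta genes, rose at 4 h, with 104, 108 and 117 RPKM in WT libraries against 97.5, 98.6 and 97.1 RPKM in EV libraries (log2 fold change 0.17 ± 0.050, limma adjusted p = 0.0193; 0.125 without replicate 3 of WT). The remaining subunits did not pass. Tcp1, the founding member found at the mouse t-complex, had log2 fold changes of 0.07 at 8 h and 0.17 at 4 h, and Cct3 had 0.09 and 0.12.

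The calls at 8 h and 4 h differed in how they responded to scaling. At 8 h the count of called subunits was 4 as fitted and 5 after cyclic loess, which removes trends along a gene's level and added Cct2 (adjusted p = 0.0444). For 4 h it was 5 as fitted and 1 after cyclic loess or quantile normalization, with Cct8 as the remaining call. Without the 3 farthest libraries named above, 3 subunits were called at 8 h and 4 at 4 h. Leaving out replicate 3 of WT left 1 call at 8 h and 2 calls at 4 h. At 4 h 1 call was left without replicate 3 of EV, and 3 calls without replicate 1 of EV or replicate 2 of WT. The members' median log2 fold change was 0.14 at 8 h and 0.16 at 4 h, against -0.02 and -0.01 over all genes tested. Centring each library on its median gave 55.2% of called genes as higher at 8 h, against 43.0% as fitted, and 57.3% at 4 h, against 44.7% as fitted. In the authors' deposited table, 3 subunits passed an adjusted p of 0.05 at 8 h, Cct4 (0.0349), Cct7 (0.00314) and Cct8 (0.0387), and 0 passed at 4 h. The share of all genes passing in that table was not counted, here or where it is quoted below. Its counts of subunits therefore stand without a background.

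**Figure D2:**
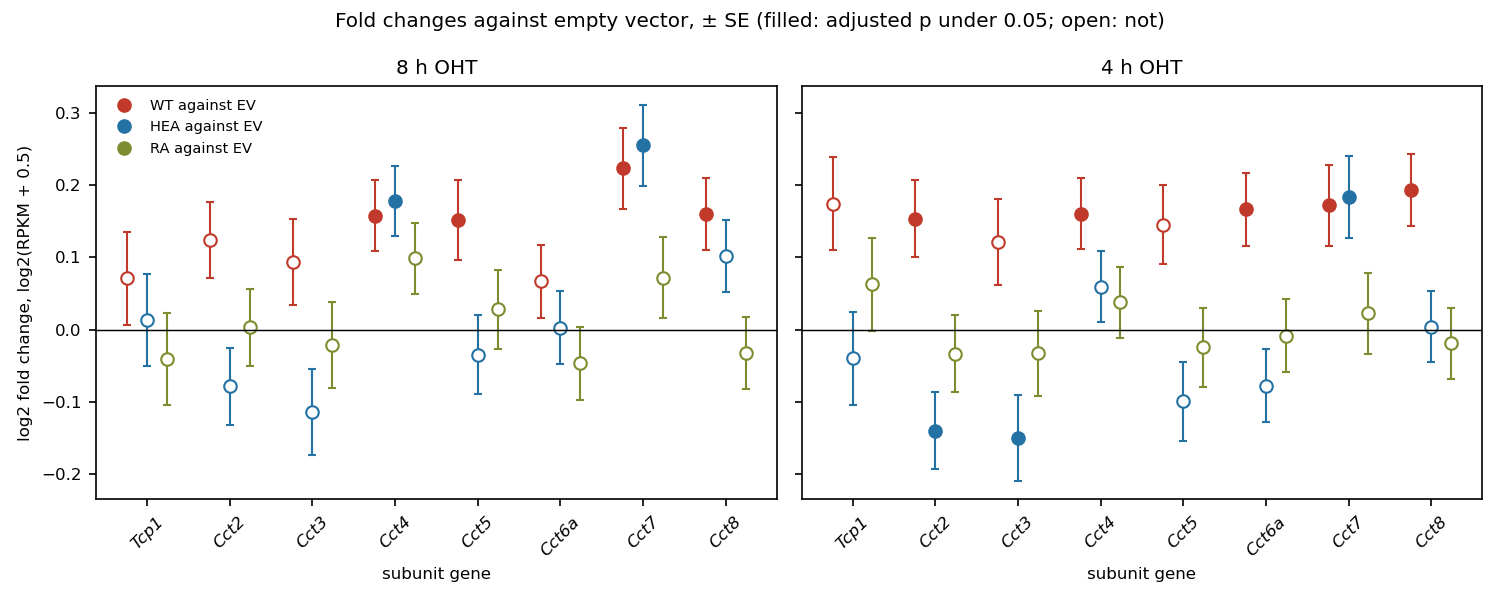
Log2 fold change against EV of each subunit, on the log2(RPKM + 0.5) scale, for WT, HEA and RA at 8 h (left) and 4 h (right); bars are SE, and filled points passed an adjusted p of 0.05. All 8 WT points are above 0 at both times, HEA points spread to both sides, and no RA point is filled.

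Library totals differed along with these sums. Over the 24 libraries the log2 of the subunits' summed RPKM and the log2 total had a Pearson correlation of -0.69. It was -0.79 after removing group means, and both are given as a description. WT libraries had 10.8 ± 0.657 M reads, against 11.7 ± 0.709 M in EV libraries, at 8 h, and 10.1 ± 0.382 M, against 11.1 ± 0.839 M in EV libraries, at 4 h (SD, n = 3 each). The summed reads of the 8 subunits, before scaling to the total, were 19027 with MycER WT against 18667 with EV at 8 h, and 18859 with MycER WT against 18566 with EV at 4 h, as group means. Reads per base were low for so abundant genes: among 17300 genes of at least 500 bases the highest mean was 1.91 reads per base, 200 genes were above 1 read per base, and Cct5 stood at 1.34. The part of totals and of reads per base in the fold changes was not tested.

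**Figure D3:**
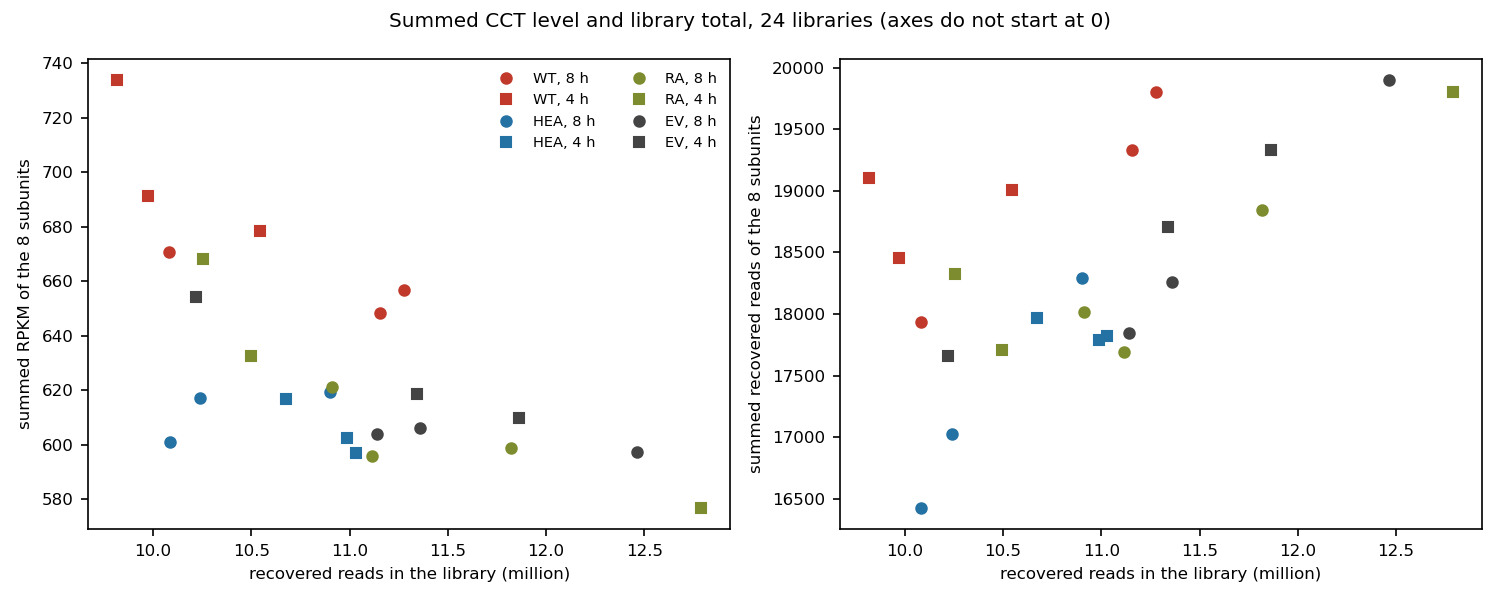
Summed RPKM (left) and summed recovered reads (right) of the 8 subunits against the reads recovered in each of the 24 libraries; colours are vectors, circles 8 h and squares 4 h, and no axis starts at 0. Summed RPKM is lower in libraries with more reads, and WT libraries lie above EV libraries of a similar total.

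With MycER HEA the subunits did not move together. As fitted, Cct7 rose at both times and Cct4 at 8 h, Cct2 and Cct3 fell at 4 h, and the others did not pass. Cct8 at 8 h was called higher under quantile normalization (limma adjusted p = 0.0168), median centring (0.0201) and cyclic loess (0.00522). It was also called with only the compared groups fitted (0.0437). Cct5 was called lower under quantile normalization at 8 h (limma adjusted p = 0.0262) and at 4 h (0.0409). At 8 h 2 of 8 subunits were called higher and 0 lower, where 20.2% of all genes were called higher and 27.5% lower. At 4 h 1 was called higher and 2 lower, where 17.7% of all genes were called higher and 25.5% lower. These counts are close to the share of all genes, so they say nothing of the subunits as a set. The members' median log2 fold change was 0.01 at 8 h and -0.06 at 4 h, against -0.05 and -0.06 over all genes tested. After median centring, 53.6% of called genes at 8 h were higher, against 42.3% as fitted.

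Cct7 had 40.8, 40.6 and 39.3 RPKM in HEA libraries, against 33.6, 34.4 and 33.0 RPKM in EV libraries at 8 h. The groups were far apart for their spread, with a log2 fold change of 0.25 ± 0.056 (limma adjusted p = 0.000931), a ratio of 1.19. After 4 h it had 39.9, 43.1 and 38.8 RPKM in HEA libraries, against 34.1, 38.2 and 34.9 RPKM in EV libraries, with a log2 fold change of 0.18 ± 0.056 (limma adjusted p = 0.0121). The adjusted p at 4 h was 0.0655 without replicate 1 of EV and 0.0739 without replicate 2 of HEA.

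Pradc1, a gene that overlaps Cct7 on the opposite strand in GENCODE M21, rose as well with MycER HEA, with a log2 fold change of 0.52 ± 0.083 at 8 h and 0.61 ± 0.083 at 4 h (limma adjusted p = 3.86e-05 and 6.34e-06). Its reads were few beside those of Cct7: Pradc1 had 26.0 CPM (reads scaled to the library total, without gene length) in HEA libraries and 18.0 CPM in EV libraries at 8 h, while Cct7 had 251 CPM in HEA libraries and 209.6 CPM in EV libraries. No source used here gives the strand setting of the counting, so reads of the pair cannot be told apart where they overlap. In the comparison of MycER WT with EV, Pradc1 did not pass, with log2 fold changes of 0.15 at 8 h and 0.11 at 4 h. Other subunits with an opposite-strand neighbour were Cct8 with Usp16, Cct6a with Psph, and Tcp1 with Mrpl18 and Acat3. Of these neighbours 0 passed between MycER WT and EV at either time, and with MycER HEA Psph fell at both times while Usp16 rose at 4 h.

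Cct4 had 85.5, 85.6 and 86.0 RPKM in HEA libraries, against 75.6, 76.1 and 75.5 RPKM in EV libraries at 8 h. Both groups varied by less than 1 RPKM and did not overlap, and the log2 fold change was 0.18 ± 0.049 (limma adjusted p = 0.00542). The calls of Cct4 and Cct7 at 8 h held under every alternative run and without each library in turn, and they were also the 2 called in the authors' deposited table. At 4 h Cct4 had 84.6, 88.2 and 81.4 RPKM in HEA libraries, against 78.5, 85.6 and 79.9 RPKM in EV libraries, with a log2 fold change of 0.06 (limma adjusted p = 0.345). The groups overlapped there. Under quantile normalization (limma adjusted p = 0.0123) and cyclic loess (0.00922) Cct4 was called higher at 4 h.

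Cct2 encodes beta, a subunit whose human counterpart is mutated in an inherited retinal disease. At 4 h it had 92.2, 94.3 and 93.7 RPKM in HEA libraries, against 97.6, 111 and 101 RPKM in EV libraries, with a log2 fold change of -0.14 ± 0.053 (limma adjusted p = 0.0387). Cct3, the gamma subunit, had 54.3, 57.7 and 54.0 RPKM in HEA libraries, against 58.9, 65.1 and 60.4 RPKM in EV libraries, with a log2 fold change of -0.15 ± 0.059 (limma adjusted p = 0.0468). For both genes HEA was below EV without overlap, but both calls stood close to the threshold. They were lost with voom on recovered reads (adjusted p = 0.0629 for Cct2 and 0.0581 for Cct3) and without replicate 2 of EV (0.215 and 0.187), and 0 of 8 subunits passed at 4 h in the authors' deposited table. Without replicate 1 of EV 2 of the 3 calls of this comparison were left, and without any other single library of the 6 only 1 was left. At 8 h their log2 fold changes were -0.08 and -0.11, and neither passed as fitted. There Cct2 passed under quantile normalization (limma adjusted p = 0.0139), and Cct3 passed with only the compared groups fitted (0.0455).

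The shares of the subunits in their summed level describe the same pattern with MycER HEA. Cct7 made up 6.57% of the summed RPKM in HEA libraries and 5.59% in EV libraries at 8 h, and 6.71% in HEA libraries and 5.69% in EV libraries at 4 h. Cct4 made up 14.0% in HEA libraries and 12.6% in EV libraries at 8 h. Cct2 made up 15.2% in HEA libraries and 16.4% in EV libraries, and Cct3 made up 8.84% in HEA libraries and 9.73% in EV libraries, both at 8 h. Cct5 made up 18.7% in HEA libraries and 19.5% in EV libraries at 8 h. In WT libraries the shares of these subunits stayed closer to EV at 8 h, with Cct7 at 5.98%, Cct4 at 12.8%, Cct2 at 16.3% and Cct3 at 9.50%. Cct5 was at 19.8% in WT libraries. Cct6a and Tcp1 went the other way at 8 h. Cct6a made up 15.5% in WT libraries, 15.9% in HEA libraries and 16.2% in EV libraries. Tcp1 made up 7.80% in WT libraries, 8.04% in HEA libraries and 8.10% in EV libraries. Shares of a sum move against each other by construction, and they are given without a test.

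**Figure D4:**
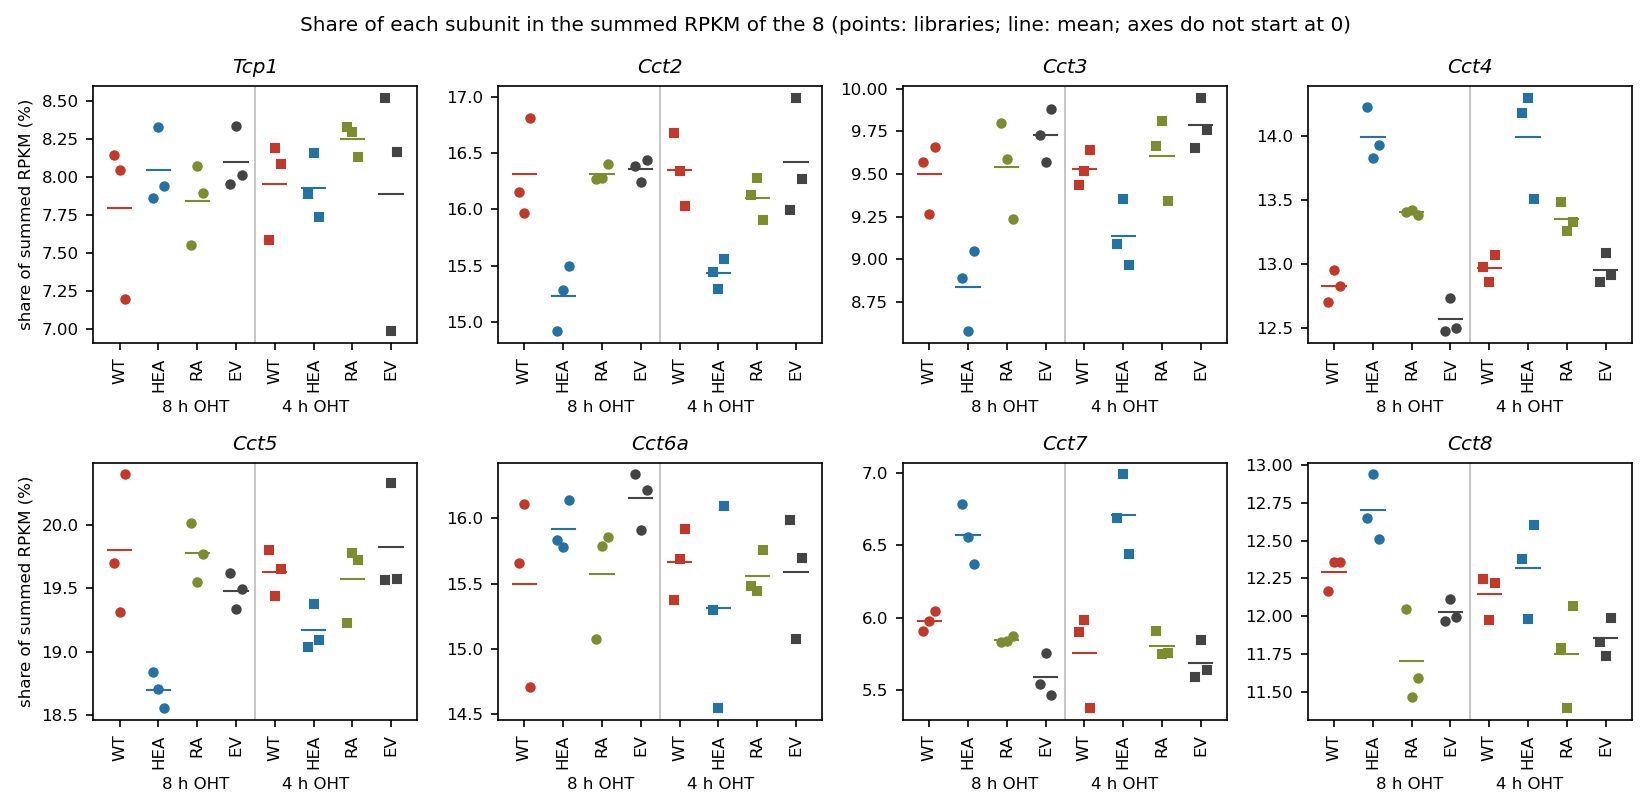
Share of each subunit in the summed RPKM of the 8 subunits, in percent, for each library; points are libraries, lines group means, 8 h lies left of the grey line and 4 h right of it, and the vertical axes do not start at 0. By group mean, HEA stands above the others for Cct7 and Cct4 and below them for Cct2, Cct3 and Cct5 at both times.

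MycER WT and MycER HEA were also compared directly. At 8 h 3 of 8 subunits were called higher with WT and 0 lower, where 24.6% of all genes were called higher and 23.4% lower. At 4 h 6 of 8 were called higher and 0 lower, where 26.9% of all genes were called higher and 22.6% lower. Cct2, Cct3 and Cct5 were called at both times, under every alternative run and without each library in turn. The count at 8 h is not far from the share of all genes, while that at 4 h is above it.

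Cct2 had 105, 105 and 113 RPKM in WT libraries, against 89.7, 94.7 and 95.6 RPKM in HEA libraries at 8 h, with a log2 fold change of 0.20 ± 0.053 (limma adjusted p = 0.00346). At 4 h it had 113, 113 and 118 RPKM in WT libraries, against 92.2, 94.3 and 93.7 RPKM in HEA libraries, with a log2 fold change of 0.29 ± 0.053 (limma adjusted p = 0.000131). That ratio of 1.22 was the largest of any subunit in the comparisons between vectors. Cct3 had 62.1, 60.9 and 64.8 RPKM in WT libraries, against 53.4, 53.1 and 55.8 RPKM in HEA libraries at 8 h, and its log2 fold change was 0.21 ± 0.059 at 8 h and 0.27 ± 0.059 at 4 h (limma adjusted p = 0.00669 and 0.000844). For Cct5 the log2 fold change was 0.19 ± 0.055 at 8 h and 0.24 ± 0.055 at 4 h (limma adjusted p = 0.00795 and 0.00103). WT was above HEA without overlap for all of these at both times.

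Tcp1, Cct6a and Cct8 were called higher with WT than with HEA at 4 h, with log2 fold changes of 0.21, 0.24 and 0.19 (limma adjusted p = 0.00951, 0.000493 and 0.0036), and not at 8 h, where the values were 0.06 for each. Of these calls, that of Cct6a held under every alternative run and without each library in turn, with adjusted p up to 0.0248. Tcp1 was lost under quantile normalization (adjusted p = 0.168) and cyclic loess (0.137), when only the compared groups were fitted (0.0756) and without replicate 3 of WT (0.0589). Cct8 was lost under quantile normalization (adjusted p = 0.16) and cyclic loess (0.267), where its log2 fold change was 0.07 and 0.05. Cct4 and Cct7 did not pass at either time. Their log2 fold changes were -0.02 and -0.03 at 8 h and 0.10 and -0.01 at 4 h, with SE of 0.049 and 0.056. The subunits that rose with HEA over EV were thus those whose WT and HEA levels lay closest together, and these comparisons share the HEA libraries.

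With MycER RA the subunits stayed near EV. limma called 0 of 8 subunits at 8 h, where 1.49% of all genes were called higher and 1.29% lower, and 0 of 8 at 4 h, where 2.58% were called higher and 2.73% lower. At an unadjusted p of 0.05 the count was also 0 at both times, and the authors' deposited table had 0. The log2 fold changes ran from -0.05 to 0.10 at 8 h and from -0.03 to 0.06 at 4 h, with SE between 0.049 and 0.064. The highest was that of Cct4 at 8 h, with 83.3, 80.0 and 80.1 RPKM in RA libraries against 75.6, 76.1 and 75.5 RPKM in EV libraries. These groups did not overlap, and the adjusted p was 0.299 as fitted. The RA libraries at 4 h spread widely, with a summed level of 577, 668 and 632 RPKM in libraries of 12.8, 10.3 and 10.5 M reads.

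Against MycER RA, MycER WT again had all 8 subunits higher in mean. At 8 h 2 of 8 were called higher and 0 lower, where 17.3% of all genes were called higher and 24.4% lower, a count near that share. At 4 h 6 of 8 were called higher and 0 lower, where 15% of all genes were called higher and 19.9% lower. After median centring, 55.6% of called genes at 4 h were higher, against 43.0% as fitted. Cct8 had 78.9, 81.2 and 82.9 RPKM in WT libraries, against 74.8, 68.3 and 69.4 RPKM in RA libraries at 8 h, with a log2 fold change of 0.19 ± 0.049 (limma adjusted p = 0.00376). That call held under every alternative run and without each library in turn, while the other, that of Cct7, was lost without replicate 2 or 3 of WT or replicate 2 or 3 of RA. The Cct7 call was also lost under quantile normalization (limma adjusted p = 0.150) and cyclic loess (0.0972), where Cct5 passed instead (0.0165 and 0.0417). It was lost as well with only the compared groups fitted (0.0661) and without the 3 farthest libraries (0.0707). At 4 h the count was 1 after cyclic loess and 1 without replicate 1 of RA, the library with the most reads, and 2 without replicate 3 of WT. The same WT libraries served in the comparisons with EV and with HEA.

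No subunit was called different between 8 h and 4 h within a vector. limma called 0 of 8 in WT, where 8.46% of all genes were called in either direction, 0 of 8 in HEA (3.33%), 0 of 8 in RA (0.22%) and 0 of 8 in EV (0.0245%). At an unadjusted p of 0.05 the counts were 2 in WT, Cct4 and Cct6a, and 0 in HEA, RA and EV. All 8 subunits had lower means at 8 h than at 4 h in WT, with log2 fold changes from -0.12 for Tcp1 to -0.03 for Cct7, and the same sign was seen in RA, from -0.12 to -0.03, and in EV, from -0.10 to -0.01. In HEA 4 of 8 had higher means at 8 h, and the values ran from -0.03 to 0.07. Group means of the library totals were 10.8 M reads at 8 h and 10.1 M at 4 h in WT. They were 11.3 M and 11.2 M in RA, 11.7 M and 11.1 M in EV, and 10.4 M and 10.9 M in HEA. Summed reads of the 8 subunits, in the same order, were 19027 and 18859 in WT and 18186 and 18612 in RA. In EV they were 18667 and 18566, and in HEA 17245 and 17859. The part of library totals in these signs was not tested. The change of the difference between MycER WT and EV from one time to the other passed for 0 of 8 subunits, as did that between HEA and EV, where 0.0163% of all genes passed in each case. At an unadjusted p of 0.05 both counts were 0.

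The subunits varied together to different degrees over the 24 libraries. Among the 28 pairs, the Pearson correlation of log2 values ran from 0.14 for Cct3 and Cct7 to 0.97 for Cct2 and Cct5, with a median of 0.63. Cct2, Cct3 and Cct5 thus followed each other, with all 3 of their pairs above 0.94, while Cct7 correlated with them at 0.14 to 0.35. After removing group means Cct7 correlated with Cct2 at 0.68, with Cct3 at 0.64 and with Cct5 at 0.73. The points share library totals and groups, so these values are descriptions without a test. Of 7950 other genes of at least 10 RPKM, those whose pattern was most like the mean of the 8 subunits were Rpl4 (r = 0.96), Rps4x (0.96), Eif3m (0.95), Eif4a3 (0.95), Rps7 (0.95), Rpl12 (0.95), Rps18 (0.92) and Timm23 (0.92). Rpl4, Rps4x, Rps7, Rpl12 and Rps18 encode ribosomal proteins, Eif3m a translation initiation factor subunit, Eif4a3 an RNA helicase of the exon junction complex, and Timm23 a mitochondrial import channel. All of them were abundant, with means from 71.3 RPKM for Eif3m to 175 RPKM for Rpl12. Their relation to library totals was not tested, so the likeness is a description too.

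The lists of CCT cofactors, clients and related chaperone genes did not move in a single direction. Prefoldin, which delivers unfolded actin and tubulin, had 0 of 6 subunit genes called between MycER WT and EV at either time. In that comparison 20.1% of all genes were called lower at 8 h and 14.4% at 4 h. Of 7 tested genes of the prefoldin-like complex and its R2TP partners, 5 were called higher at 8 h and 6 at 4 h, and 0 lower, where 15.2% and 11.6% of all genes were called higher. At 8 h the leading ones were Ruvbl1 (log2 fold change 0.39), an AAA+ ATPase with 71.9 ± 2.62 RPKM in WT libraries against 54.6 ± 2.86 in EV libraries, and Pdrg1 (0.39), with 62.5 ± 3.57 RPKM in WT libraries against 47.8 ± 3.52 in EV libraries (SD, n = 3 each). Ruvbl2 (0.31), the partner ATPase, and Uri1 (0.33), an unconventional prefoldin, followed. With MycER HEA Ruvbl1 fell instead, by 0.20 at 8 h and by 0.28 at 4 h, and Rpap3 rose by 0.50 and 0.45. Of the 6 prefoldin genes, 3 were called lower with HEA than with EV at 8 h and 2 at 4 h, and 0 higher. Over all genes 27.5% and 25.5% were called lower there. Between WT and HEA, 2 of the 6 were called higher with WT at 8 h and 4 at 4 h, and 0 lower. The shares of all genes called higher with WT were 24.6% and 26.9%.

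Of the phosducin-like cofactors, 2 of 3 tested genes fell with MycER WT at 8 h, where 20.1% of all genes were called lower. Pdcl, known for the folding of G protein beta subunits with CCT, had 19.5 ± 1.81 RPKM in WT libraries against 28.4 ± 1.67 RPKM in EV libraries at 8 h (log2 fold change -0.53 ± 0.15, limma adjusted p = 0.00914). Pdcl3 had 25.8 ± 1.68 RPKM in WT libraries against 35.7 ± 1.80 RPKM in EV libraries (log2 fold change -0.46 ± 0.085, limma adjusted p = 0.00028). With MycER HEA the log2 fold changes from EV at 8 h were -0.97 for Pdcl and -0.63 for Pdcl3. Pdcl was called higher with WT than with HEA at 8 h (log2 fold change 0.44, limma adjusted p = 0.0212), and Pdcl3 did not pass (0.17, limma adjusted p = 0.117). At 4 h 0 of the 3 were called with MycER WT, and 3 were called lower with MycER HEA, where 25.5% of all genes were called lower.

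Of 13 tested tubulin genes, 2 were called higher and 3 lower with MycER WT at 8 h, near the 15.2% of all genes called higher and the 20.1% called lower. Tubb3, a beta-tubulin best known from neurons, had 26.5 ± 2.68 RPKM in WT libraries against 14.2 ± 2.50 RPKM in EV libraries (log2 fold change 0.89), and Tube1, epsilon-tubulin, rose by 0.64. Tubb2b (-1.38) and Tubb2a (-0.69) fell. With MycER HEA 2 tubulin genes were called higher and 7 lower at each time, and Tubb3 was among the lower ones, with 8.43 ± 0.376 RPKM in HEA libraries at 8 h. Over all genes 20.2% were called higher and 27.5% lower with MycER HEA at 8 h, and 17.7% and 25.5% at 4 h. Of 7 actin and actin-related genes 1 was called with MycER WT at 8 h, Actr3 (-0.18) of the Arp2/3 complex, and 0 at 4 h.

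Of 7 tubulin cofactor genes, which assemble folded tubulin into dimers, 2 were lower with MycER WT at 8 h, Tbcd (-0.30) and Tbcb (-0.30), and 0 were called at 4 h. Of 16 tested genes for WD40 and other clients, 4 were higher and 2 lower at 8 h. Over all genes 15.2% were called higher and 20.1% lower, so nothing is read from the counts of actin, cofactor and WD40 genes as lists. Rae1 (0.36), an mRNA export factor, and Ppp2r2a (0.48), a phosphatase subunit, were higher, and Fzr1 (-0.47), an activator of the anaphase-promoting complex, and Gnb4 (-0.36), a G protein beta subunit, were lower. In the mitochondrion the chaperonin is made by Hspd1 with its lid Hspe1, and Hspd1 rose by 0.17 at 8 h and 0.18 at 4 h with MycER WT (limma adjusted p = 0.00739 and 0.00767). Hspe1 was not called with MycER WT at either time. With MycER HEA 2 of 2 genes of this list were called lower at 4 h, where 25.5% of all genes were called lower. Hspd1 fell there by 0.12 (limma adjusted p = 0.0353). Of 3 tested chaperonin-like genes, relatives of CCT that work at the cilium base, 0 were called with MycER WT at either time.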

How the data were processed

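Stranded libraries were made from column-purified, DNase-treated total RNA, per the labels' protocols. Per the submitters' processing notes, build mm9 and the tools featureCounts 1.4.5-p1, TopHat2 2.0.8, DESeq2, SAMtools and TopHat were used, in no stated role or order. No source used here gives the annotation, the strand setting or the treatment of duplicates and of reads that match several places, so reads shared with pseudogene copies of the subunits may be split. The authors deposited RPKM for 21671 genes in 24 libraries, per the file headers. A second deposited table, of the authors' comparisons with EV, holds log2 fold changes with standard errors, baseMean scores, p-values and adjusted p-values. It is quoted only where named, and baseMean helped to set gene lengths.

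RPKM values are not counts, so limma-trend (limma 3.58.1, R 4.3.3) was run on log2(RPKM + 0.5) for the 12268 genes with at least 1 RPKM in at least 3 libraries. All 24 libraries entered a single fit of 8 group means (16 residual degrees of freedom), with Benjamini-Hochberg adjustment over all genes tested and a threshold of 0.05. Whole reads were recovered from the RPKM steps: 99.6% of 362673 values above 0 lay within 0.01 of a read. A count of 3 reads, the limit that a count of 0 allows, was 0.235 to 0.306 CPM, by counting error alone. Libraries of a group differed by more than sampling noise (chi-square per degree of freedom 1.43 to 17.8 over 24 pairs). The fitting was tested on simulated data. Python 3.11.15 with numpy 2.4.6, pandas 2.3.3 and matplotlib 3.10.9 served the other steps.

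Members, lists and tests were chosen with earlier results of these data known. All 8 members are named; of each partner list, up to 4 called genes of smallest p in MycER WT against EV at 8 h and up to 2 against the majority are named, and Rpap3 under HEA and the opposite-strand neighbours were named after their values were seen. Alternatives were pseudocounts of 0.1 and 1, no filter, other scalings, voom on recovered reads, no variance trend, only the groups compared, the replicate block and leaving out libraries.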

Additional observations from a re-analysis of the deposited data

How the results depend on the processing

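No called subunit changed direction under any alternative run. Counts of called subunits that moved by over 1.5 times were as follows. Fitting only the groups compared gave 0 for WT against EV at 4 h (5 as fitted), 0 for HEA against EV at 4 h (3 as fitted), 0 for WT against RA at 4 h (6 as fitted), 1 for WT against RA at 8 h (2 as fitted) and 4 for HEA against EV at 8 h (2 as fitted); fewer residual degrees of freedom go with this fit. Quantile normalization gave 1 for WT against EV at 4 h, 1 for WT against RA at 4 h, 5 for HEA against EV at 8 h and 1 for RA against EV at 8 h (0 as fitted), and cyclic loess gave 1 for WT against EV and 1 for WT against RA, both at 4 h. For HEA against EV at 4 h the count was 1 with no filter, 1 with median centring, 1 with no variance trend, 1 with voom and 1 without the 3 farthest libraries, a setting chosen after seeing the data that gave 3 for WT against RA at 4 h. Smaller moves included 4 calls for WT against HEA at 4 h (6 as fitted) under quantile normalization and under cyclic loess. The cause was not tested. Leaving out a library in turn gave 1 to 6 calls for WT against EV at 4 h, 1 to 4 for WT against EV at 8 h, 1 to 2 for HEA against EV at 4 h, 1 to 7 for WT against RA at 4 h and 1 to 2 for WT against RA at 8 h. Same-numbered libraries of different groups did not deviate together in the median (r from -0.60 to 0.41 over 84 pairs, median 0.02, against -0.01 for other numbers). Of the 84 pairs, 30 had r over 0.1. A median over all pairs cannot show whether particular groups shared a preparation, which was not tested. In the main fit the numbers served as names of libraries only. With the replicate block 5 subunits were called for WT against EV at 4 h and 4 at 8 h, and Cct3 was lost for HEA against EV at 4 h (adjusted p = 0.0535) and for WT against RA at 4 h (adjusted p = 0.057). With 3 libraries a group and an SE of 0.049 to 0.064, log2 differences of the size seen here lie near what can be called.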
